A study of Mus musculus with 18 samples.

Results

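The lenses compared here came from 14-day-old heterozygous *Cryab*-R120G knock-in mice (*Cryab*-R120G-het) and from wild-type (WT) mice of the same line, age and strain, C57BL/6J. They are 6 of the 18 libraries of the series, 3 per genotype, chosen by the genotype and number in the sample titles and in the columns of the count table. The titles were followed because the genotype field of the *Cryab* mutant libraries names the other line of the series, *Cryaa*-R49C. Each library was made from whole lenses pooled from several mice, and the replicates are separate pools. The knock-in lies in the mouse's own *Cryab* gene, so the mutant allele is expressed wherever *Cryab* is, and het lenses keep 1 WT allele. The 3 homozygous libraries of the line (*Cryab*-R120G-homo) and the het and WT lenses of the 2-day-old *Cryaa*-R49C line are used only where a difference from them was tested or their values stand beside those of the het lenses.

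αB-crystallin, the product of *Cryab*, is a small heat shock protein that holds partly unfolded proteins in solution and forms large mixed oligomers with αA-crystallin. The lens is a transparent body without vessels of its own, made of 1 anterior layer of epithelial cells and a mass of elongated fibre cells that fill with crystallins and lose their organelles. The R120G change in αB-crystallin is known to cause cataract and myopathy in people.

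The tissue matched its label. The crystallin genes took between 62.8% and 74.0% of the counts of each of the 6 libraries, and the fibre genes *Mip*, *Bfsp1*, *Bfsp2* and *Gja3* were detected in each, as were the epithelial genes *Foxe3*, *Pax6* and *Cdh1*. *Lim2*, a fibre membrane gene, has no usable value here. Library totals were 18238553, 27511923 and 27620319 counts in WT replicates 1, 2 and 3 and 17478028, 26969391 and 25141026 in het replicates 1, 2 and 3, so the first replicate of each genotype was the shallowest. Between 16199 and 17138 genes had a count in each library. Levels are given as CPM, counts scaled by library size and TMM factor. The factors of these libraries were below 1, so the CPM of the 6 WT and het libraries sum to between 1555790 and 2016546, and they compare a gene between libraries rather than give its share of a library.

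Across the genome, 140 of 26547 genes passed the threshold (edgeR quasi-likelihood test, Benjamini-Hochberg FDR at most 0.05), which is 0.527% of the genes tested. Of these, 61 genes (0.23%) were higher and 79 (0.298%) lower in het lenses. With the 13938 genes that edgeR's filterByExpr function keeps, for which the variance of each gene was estimated from its own counts to a larger degree, 1 gene passed, *Eno1b* (0.00717%), and 532 had an unadjusted p under 0.05. The fold changes of single genes other than *Eno1b* below therefore rest on the model of all 26547 genes, and a library that stood apart from its group weighed on them. WT replicate 1 was such a library, and 78 of the 79 genes called lower had their highest level of the 6 libraries in it. Without it, 281 genes (1.06% of 26428) passed, 277 higher (1.05%) and 4 lower (0.0151%), and with filterByExpr *Eno1b* alone (0.00687% of 14549). Of the 61 higher genes, 57 were still called higher without this library. This omission is a weak test for photoreceptor and adult globin genes, whose sums were highest in WT replicate 1 among the WT libraries. Without het replicate 1 instead, 19 genes were called higher and 71 lower. The lower calls are described below as values of WT replicate 1, and values without it stand beside most of the rises.

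*Cryab* itself (chromosome 9, 50751325 to 50756636, GRCm38) was read at 42300, 45000 and 32400 CPM in WT and at 27500, 36400 and 41800 CPM in het lenses. The groups overlapped, with means of 39905 ± 6625 and 35222 ± 7239 CPM (SD, n = 3 each), and the log2 fold change of −0.18 did not pass the test (edgeR adjusted p = 1). *Cryaa* gave 267000, 288000 and 250000 CPM in WT and 221000, 250000 and 281000 CPM in het lenses (log2 fold change −0.10, adjusted p = 1). The counts do not separate the mutant *Cryab* transcript from the normal one.

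Beside 0.527% of all genes with WT replicate 1 and 1.06% without it, none of the 16 crystallin genes passed the test in either direction. Their median log2 fold change was −0.15, against 0.01 over all 10500 genes with a mean count of at least 10 over the 6 libraries, and all 16 estimates were negative. This direction depended on the scaling. When counts were scaled by library size and not by TMM, the median of those 10500 genes moved to 0.20, the crystallin median to 0.04, and 11 of the 16 estimates were positive. For 3 crystallin genes, all 3 het libraries lay below all 3 WT libraries, as they did for 5.31% of the genes with a mean count of at least 10. One was *Crygd*, a fibre cell γ-crystallin, at 27500, 24400 and 27000 CPM in WT and 21100, 24200 and 22500 CPM in het lenses. The same held for other lens genes, of which none of 25 fibre structure and channel genes and none of 20 epithelial and transcription factor genes passed. *Bfsp2*, which encodes the beaded filament protein phakinin, ranged from 5710 to 8150 CPM in WT and from 2520 to 6130 CPM in het lenses. *Bfsp1*, its partner filensin, was at 2780, 1990 and 2610 CPM in WT and 1870, 1940 and 1890 CPM in het lenses, without overlap but far from the threshold (log2 fold change −0.37, adjusted p = 1).

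The capsule is the basement membrane that lens cells lay down around themselves. Of its 17 genes, *Col18a1* was called higher and none lower, beside 0.23% higher and 0.298% lower over all genes. Of the 16 with a mean count of at least 10, 6 had all het libraries below all WT libraries, against 5.31% of all such genes. *Col4a1*, a chain of the main capsule collagen, was at 281, 208 and 289 CPM in WT and at 192, 202 and 171 CPM in het lenses (log2 fold change −0.46, adjusted p = 1). *Col18a1*, the source of the endostatin fragment, was at 4.32, 1.04 and 2.99 CPM in WT and at 8.99, 6.10 and 5.36 CPM in het lenses (log2 fold change 1.33, adjusted p = 0.00233). It did not pass without WT replicate 2 (adjusted p = 0.514) or without het replicate 1 (adjusted p = 0.222), and was at 1.76 without WT replicate 1. The median of the 16 capsule genes with a mean count of at least 10 was −0.27, or −0.08 when scaled by library size.

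Immediate-early transcripts were far higher in WT replicate 1 than in any other library of the line. These genes encode transcription factors and feedback regulators that are switched on within minutes of a stimulus to a cell, without new protein synthesis. The summed level of 38 such genes was 2854 CPM in WT replicate 1, 272 and 235 CPM in the other WT libraries, 228, 232 and 295 CPM in het and 238, 292 and 250 CPM in homo lenses. Of the 29 with a mean count of at least 10, WT replicate 1 was the highest of the 6 WT and het libraries in 29. The plot of summed levels by library shows this library alone above the rest.

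**Figure D1:**
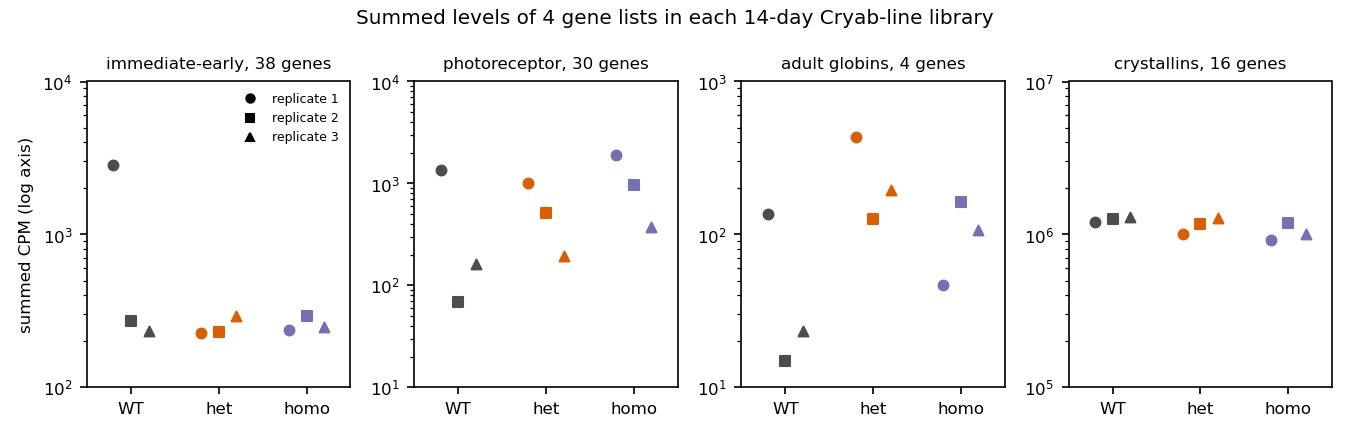
Summed CPM (log axis) of 4 gene lists in each WT, het and homo library of the *Cryab* line, with circles, squares and triangles for replicates 1, 2 and 3. The immediate-early sum is 2854 CPM in WT replicate 1 and at most 295 CPM in the other 8 libraries, the photoreceptor sum runs from 69.0 to 1921 CPM with overlap between all 3 genotypes, the sum of 4 adult globins is highest in het replicate 1, and the crystallin sums of het libraries overlap those of WT and of homo libraries.

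Of the 38 immediate-early genes, 24 were called lower in het lenses and none without WT replicate 1, beside 0.298% and 0.0151% lower over all genes. *Fos*, which encodes a subunit of the AP-1 factor, was at 823 CPM in WT replicate 1, at 0.455 and 0.292 CPM in WT replicates 2 and 3 and at 0.712, 0.385 and 1.72 CPM in het lenses. The log2 fold change of −8.18 (edgeR adjusted p = 1.48e-107) became 1.31 (adjusted p = 0.542) without this library. *Fosb*, its paralog, had 91.9 CPM in WT replicate 1 and no count in the other 5 libraries. Over the group it was at least 312-fold higher in WT, a bound set by a floor of 3 counts in the het group, and every one of its counts came from that 1 library. *Egr1*, a zinc finger factor of the same class, was at 275, 1.17 and 1.53 CPM in WT and 1.51, 0.834 and 1.30 CPM in het lenses. *Atf3*, a stress-responsive factor, was at 130, 0.325 and 0.219 CPM in WT and 0.0891, 0.128 and 0.275 CPM in het lenses. In each of these genes the other 2 WT libraries lay at the het level. The median log2 fold change of the list was −3.35 with all libraries and 0.14 without WT replicate 1.

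Many of these genes share an element in front of their start site, so stretches of 4 such promoters are shown. The letters TGACGT, the core of the site bound by CREB and ATF factors, occur on either strand within 250 bases upstream of 12 of the 31 listed genes with a promoter sequence in RefSeq (38.7%), of 8 of the 20 of them called lower (40.0%) and of 7.29% of 27025 genes. The CArG box, the site of serum response factor, was found in 3 of the 31 (9.68%) and in 1.62% of all genes. In the stretches below (RefSeq, GRCm38.p6, 5′ to 3′ on the gene's strand), capitals mark TGACGT or its reverse complement. The *Fos* stretch is chr12:85473799-85473854 on the plus strand, that of *Atf3* chr1:191183334-191183366 on the minus strand, that of *Dusp1* chr17:26508583-26508638 on the minus strand and that of *Per1* chr11:69099995-69100050 on the plus strand.
Fos: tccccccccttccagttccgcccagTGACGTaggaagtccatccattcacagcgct
Atf3: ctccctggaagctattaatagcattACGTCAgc
Dusp1: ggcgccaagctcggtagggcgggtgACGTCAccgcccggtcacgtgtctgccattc
Per1: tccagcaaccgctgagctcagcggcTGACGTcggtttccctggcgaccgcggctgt
*Dusp1*, a phosphatase that shuts off MAP kinases, was at 154 CPM in WT replicate 1 and between 11.8 and 18.9 CPM in the other 5 libraries. *Per1*, a clock gene, was at 14.3 CPM there and between 0.481 and 1.75 CPM elsewhere. A match in these letters describes the sequence and was not tested as a site.

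The lower calls outside this list had the same shape. *Chka*, choline kinase, was at 133, 11.2 and 13.5 CPM in WT and 10.1, 9.69 and 8.31 CPM in het lenses, and its log2 fold change moved from −2.49 (adjusted p = 1.67e-16) to −0.40 (adjusted p = 1) without WT replicate 1. *Neat1*, a nuclear non-coding RNA, went from −1.83 to −0.39, *Ccnl1*, a cyclin of the splicing machinery, from −1.74 to −0.30, and *Hbegf*, a growth factor of the EGF family, from −2.37 to −0.89, each no longer past the threshold. *Pecam1*, an endothelial adhesion gene, was at 4.85 CPM in WT replicate 1 and between 0.219 and 0.623 CPM in the other 5 libraries, while *Cdh5*, another endothelial gene, ranged from 0.219 to 0.623 CPM in all 6. *Pecam1* was the 1 gene called of 22 vessel genes, beside 0.298% lower over all genes. Without WT replicate 1, 1 vessel gene was called higher and none lower, beside 1.05% and 0.0151% over all genes. Of the 79 genes called lower, 77 were at least 3-fold higher in WT replicate 1 than the mean of WT replicates 2 and 3.

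Stress pathway genes that were called lower belonged to this set. Among 21 targets of ATF4 and CHOP, the factors of the integrated stress response, *Atf3*, *Chac1*, *Gdf15* and *Cebpb* were called lower with all libraries, and of these *Chac1* without WT replicate 1. Among 17 p53 targets *Btg2* and *Plk2* were called lower, among 25 cytosolic chaperone genes *Hspa1a*, among 22 genes of the endoplasmic reticulum chaperones and unfolded protein response *Dnajb9*, and among 33 histone genes *Hist1h1e*. None of these 5 passed without WT replicate 1. Over all genes, 0.298% were called lower with all libraries and 0.0151% without WT replicate 1. *Hspa1a*, the heat-inducible Hsp70, was at 3.48, 0.195 and 0.073 CPM in WT and at 0, 0.0642 and 0.206 CPM in het lenses. *Hspa5*, the main Hsp70 of the endoplasmic reticulum, was at 432, 123 and 67.5 CPM in WT and at 111, 137 and 140 CPM in het lenses, and its log2 fold change of −0.68 (adjusted p = 0.608) became 0.45 without WT replicate 1.

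Lower expression that did not rest on WT replicate 1 was found in few genes, and Gm13091, Espn and Def6 among them are named because their number is small, after their values were seen. *Chac1*, an enzyme that degrades glutathione, was at 7.49, 0.585 and 1.31 CPM in WT and at 0.0891, 0.385 and 0.206 CPM in het lenses. Its log2 fold change was −3.58 (adjusted p = 9.04e-14), and −1.95 (adjusted p = 0.0259) without WT replicate 1. *Gm13091*, an unnamed gene model, was at 6.54, 6.88 and 7.52 CPM in WT and at 2.49, 3.14 and 2.95 CPM in het lenses, with no overlap and little spread. Its log2 fold change of −1.28 (adjusted p = 0.0273) held without WT replicate 1 (−1.32, adjusted p = 0.0220) and missed the threshold without any of the other 5 libraries (adjusted p between 0.0824 and 0.324). *Espn*, an actin-bundling protein, at 13.4, 16.2 and 15.2 CPM in WT and 8.46, 8.28 and 6.45 CPM in het lenses, passed without WT replicate 1 (−1.02, adjusted p = 0.0484) and not with it (adjusted p = 0.0874). The same held for *Def6*, with 14 counts over the WT libraries and 0 over the het libraries, at least 5.01-fold higher in WT.

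The same library carried retina transcripts, but here it was not alone. Photoreceptors of the neural retina, which faces the lens across the vitreous, express the proteins of the visual cascade at very high levels. The 30 photoreceptor genes summed to 1343, 69.0 and 162 CPM in WT, to 1022, 511 and 194 CPM in het and to 1921, 967 and 374 CPM in homo lenses. *Gnat1*, rod transducin, was at 188, 5.26 and 27.4 CPM in WT and at 170, 76.2 and 29.9 CPM in het lenses. *Sag*, rod arrestin, was at 188, 4.55 and 11.6 CPM in WT and at 116, 57.8 and 21.5 CPM in het lenses. In both genes the spread among replicates of 1 genotype was larger than the difference between the genotypes, and the groups overlapped.

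With all libraries, 1 of the 30 photoreceptor genes was called higher in het lenses and none lower, beside 0.23% higher over all genes. It was *Crx*, the photoreceptor homeobox factor, at 12.4, 0.26 and 0.949 CPM in WT and 16, 10.2 and 2.88 CPM in het lenses (log2 fold change 1.17, adjusted p = 0.0116, and 4.02 without WT replicate 1), and it did not pass without WT replicate 2, WT replicate 3, het replicate 1 or het replicate 2. Without WT replicate 1, 28 of the 30 were called higher, beside 1.05% over all genes, and the median log2 fold change of the 29 with a mean count of at least 10 moved from 0.19 to 2.72. *Gnat1* then had a log2 fold change of 2.5 (adjusted p = 4.32e-12), against 0.33 (adjusted p = 1) with it. Without het replicate 1 instead, the same value was −0.46, so the direction of this rod gene depended on which library was left out. Genes of the inner retina and its glia moved in the same way, with 9 of 38 called higher with all libraries and 22 without WT replicate 1, beside the same shares over all genes, and medians of 0.80 and 2.72. *Abca4*, which is among the 30, did not follow the others, at 32.7, 29.4 and 31.5 CPM in WT and 23.4, 26.6 and 26.5 CPM in het lenses.

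**Figure D2:**
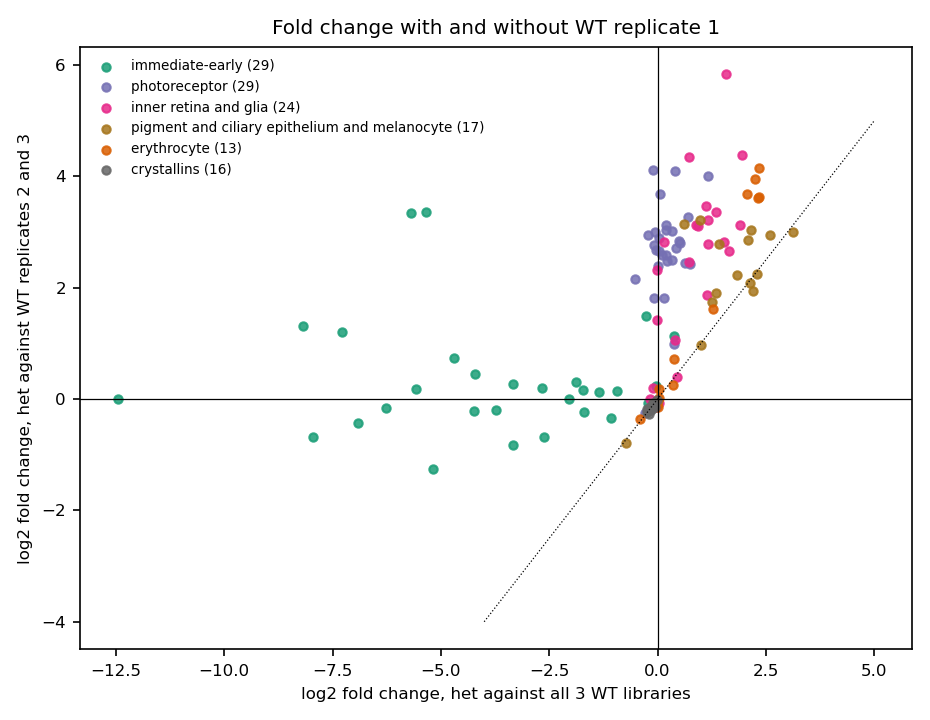
Log2 fold change of het against WT for genes of 6 lists with a mean count of at least 10, with all 3 WT libraries on the x axis and without WT replicate 1 on the y axis. Each point is a gene and the dotted line marks equal values. The immediate-early genes lie far to the left at a y value near 0 (medians −3.35 and 0.14), the photoreceptor genes near x = 0 well above the line (medians 0.19 and 2.72), and the crystallins on the line (medians −0.15 and −0.16).

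Retina genes were named among the rises with values in both genotypes. *Tfap2b*, a factor of amacrine cells, was at 2.64, 0 and 0.073 CPM in WT and at 3.92, 1.86 and 1.17 CPM in het lenses (log2 fold change 1.58, adjusted p = 0.00802, and 5.83 without WT replicate 1). *Six6*, an eye field factor, was at 1.05, 0.0649 and 0.292 CPM in WT and at 2.14, 1.73 and 0.824 CPM in het lenses (log2 fold change 1.91, adjusted p = 0.00323, and 3.12 without WT replicate 1). *Reln*, the secreted protein reelin, was at 4.01, 0.195 and 0.511 CPM in WT and at 5.43, 3.59 and 1.85 CPM in het lenses (1.35, adjusted p = 0.0167, and 3.35 without it). *Calb2*, the calcium-binding protein calretinin, was at 5.69, 0.714 and 1.90 CPM in WT and at 15.2, 6.74 and 2.88 CPM in het lenses (1.64, adjusted p = 2.88e-05, and 2.66 without it). In all 4 genes WT replicate 1 lay within the het range, WT replicates 2 and 3 lay below it, and het replicate 3 was the lowest het library, as it was for the photoreceptor sum. None of the 4 passed without WT replicate 2 or without het replicate 1.

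*Slc1a3* and *Slc1a1* encode glutamate transporters. *Slc1a3*, the transporter of Müller glia, was at 3.27, 0.26 and 0.146 CPM in WT and at 3.83, 2.44 and 0.893 CPM in het lenses, and did not pass (log2 fold change 1.13, adjusted p = 0.261), although it did without WT replicate 1 (3.48, adjusted p = 3e-08) or het replicate 3 (1.53, adjusted p = 0.0221). *Slc1a1* had 3 counts over the WT libraries and 33 over the het libraries, a ratio of 10.3 with a 95% counting interval of 3.22 to 52.3 (adjusted p = 0.0426). It passed without WT replicate 1 (adjusted p = 0.000758) or het replicate 3, and not without any of the other 4 libraries (adjusted p between 0.173 and 0.521). *Foxp2*, a forkhead factor, had no count in WT and 22 in het lenses, at 0.534, 0.77 and 0.275 CPM. It was at least 6.84-fold higher in het lenses (adjusted p = 0.000189), and it kept the call without any 1 of the 6 libraries. For retina and other low transcripts in pooled lenses, more cells of a type and more RNA per cell cannot be told apart.

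*Eno1b* (chromosome 18, 48045335 to 48048412) was the gene whose rise held most widely. It is a copy of the enolase gene *Eno1*, whose product catalyses a late step of glycolysis. It was at 0.633, 0.585 and 0.657 CPM in WT (6, 9 and 9 counts) and at 5.79, 3.85 and 5.77 CPM in het lenses (65, 60 and 84 counts). The groups were far apart and each was tight, with means of 0.625 ± 0.037 and 5.14 ± 1.11 CPM (SD, n = 3 each). The log2 fold change was 3.03 (adjusted p = 1.68e-09), and with filterByExpr 3.01 ± 0.41 (SE, adjusted p = 0.00258). Over 22 alternative settings it ranged from 2.91 to 3.21 and passed in 21, the exception being filterByExpr without WT replicate 2 (adjusted p = 0.0613). Homo lenses were at 5.68, 7.69 and 2.35 CPM, on both sides of the het range, and the 9 libraries of the *Cryaa*-R49C line lay between 0.223 and 0.754 CPM, at the level of *Cryab*-WT.

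*Eno1* itself was at 88.2, 95.5 and 83.9 CPM in WT and at 60.2, 77.8 and 67.7 CPM in het lenses (log2 fold change −0.38, adjusted p = 1). Its coding sequence and that of *Eno1b* were identical at 1294 of 1302 bases (99.4%), and 1560 of the 1827 stretches of 49 bases in *Eno1b* transcripts (85.4%) also occur in another gene, 1401 of them in *Eno1*. Reads counted for *Eno1b* as unique therefore came from a small part of its sequence, and its level cannot be set against that of *Eno1*. Of 22 enolase and glycolysis genes *Eno1b* was the one called, beside 0.23% higher over all genes. Without WT replicate 1, 2 of the list were called higher, beside 1.05% over all genes. *Pkm*, pyruvate kinase, was at 220, 244 and 226 CPM in WT and at 188, 202 and 196 CPM in het lenses, without overlap and without a call (log2 fold change −0.24, adjusted p = 1).

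Among the larger rises were 2 more genes that resemble a highly expressed one. *Gm11942* (chromosome 4, 32964888 to 32965232) resembles *Rplp1*, which encodes a protein of the ribosomal stalk. It was at 0.211, 0.26 and 0.219 CPM in WT and at 25.5, 0.385 and 20.9 CPM in het lenses (log2 fold change 6.03, adjusted p = 1.19e-45, and 0.557 with filterByExpr). Het replicate 2 thus lay near the WT level and the other het libraries far above it, while homo lenses were at 45.8, 52.2 and 21.8 CPM. The log2 fold change was 5.98 without WT replicate 1. *Rplp1* overlapped between the genotypes, at 117, 108 and 127 CPM in WT and 112, 122 and 129 CPM in het lenses. *Gm15610* (chromosome 5, 8971948 to 8972142), which resembles *Tma7*, had no count in WT and 12, 0 and 38 counts in het lenses, at least 15.5-fold higher (adjusted p = 9.46e-06), with het replicate 2 again at the WT level.

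The coding bases of *Gm11942* and *Rplp1* differ at 9 of 342 positions, which is what lets a read be assigned to 1 of them. The stretch with 5 of these differences is shown, coding bases 211 to 271 counted from the start codon in the GENCODE transcripts of GRCm38, with the differing bases in capitals.
Gm11942: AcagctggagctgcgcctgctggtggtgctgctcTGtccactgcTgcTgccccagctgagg
Rplp1: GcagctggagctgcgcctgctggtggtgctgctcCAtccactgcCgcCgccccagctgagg
Of the 297 stretches of 49 bases in *Gm11942*, 92 (31.0%) occur in another gene, and of the 147 in *Gm15610*, 64 (43.5%). The split of reads between these copies and the genes they resemble is therefore uncertain.

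Of 23 erythrocyte genes tested, 5 rose in het lenses and none fell, beside 0.23% higher over all genes. They were the adult globin genes *Hba-a1*, *Hba-a2*, *Hbb-bs* and *Hbb-bt*, which form near-identical pairs, and *Alas2*, the first enzyme of haem synthesis in red cells. *Hbb-bs*, the most counted of them, was at 94.3, 10.7 and 15.3 CPM in WT and at 289, 84.3 and 128 CPM in het lenses (log2 fold change 2.07, adjusted p = 4.86e-12). *Hba-a1* was at 10.8, 1.75 and 2.04 CPM in WT and at 40.0, 12.4 and 18 CPM in het lenses (2.33, adjusted p = 7.02e-13). *Alas2* was at 3.37, 0.195 and 0.511 CPM in WT and at 10.4, 3.91 and 4.67 CPM in het lenses (2.35, adjusted p = 4.79e-07). WT replicate 1 was the highest WT library in each and het replicate 1 the highest het library, and for *Hba-a1* and *Alas2* the groups did not overlap. These 2 libraries were also the shallowest of the 6 and had the highest photoreceptor sums, and the part of either in the red cell values was not tested.

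Summed over the 4 adult globins, WT libraries held 136, 14.9 and 23.3 CPM, het libraries 434, 127 and 194 CPM and homo libraries 46.8, 164 and 107 CPM. All 4 and *Alas2* kept their calls without any 1 of the 6 libraries, and without WT replicate 1 the log2 fold changes were between 3.62 and 4.16, and without het replicate 1 between 1.42 and 1.84. Under filterByExpr none passed (adjusted p between 0.994 and 1). The embryonic globins *Hbb-bh1* and *Hba-x* had no count in the 6 libraries. *Hba-a1* and *Hba-a2* are identical at 425 of 426 coding bases and *Hbb-bs* and *Hbb-bt* at 440 of 441, so the split of reads within each pair is uncertain. The stretches that hold the 1 difference, coding bases 351 to 411 and 381 to 441, show how little separates each pair (capitals).
Hba-a1: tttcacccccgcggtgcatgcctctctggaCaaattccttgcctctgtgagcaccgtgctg
Hba-a2: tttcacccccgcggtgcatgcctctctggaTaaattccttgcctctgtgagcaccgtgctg
Hbb-bs: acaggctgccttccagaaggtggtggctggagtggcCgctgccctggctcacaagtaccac
Hbb-bt: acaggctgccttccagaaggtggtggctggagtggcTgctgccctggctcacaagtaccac

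Genes of the pigmented and ciliary epithelia and of melanocytes were the list with the most rises when all libraries were used, 11 of 25 tested, with none lower, beside 0.23% higher over all genes. Without WT replicate 1, 13 of them were called higher, fewer than the 28 photoreceptor and 22 inner retina genes, beside 1.05% over all genes. These epithelia lie next to the lens, the ciliary body around its equator and the iris in front of it, and they make pigment, aqueous humour and components of the vitreous. The median log2 fold change was 1.43, and 2.23 without WT replicate 1. All 3 het libraries lay above all 3 WT libraries in 10 of the 17 with a mean count of at least 10, as they did in 4.91% of the genes with a mean count of at least 10.

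*Rgr*, an opsin of the pigment epithelium, was at 0.422, 0.585 and 0.657 CPM in WT and at 8.37, 4.43 and 2.33 CPM in het lenses (log2 fold change 3.13, adjusted p = 1.68e-09). *Dct*, an enzyme of melanin synthesis, was at 0.633, 1.49 and 1.46 CPM in WT and at 9.97, 5.07 and 2.33 CPM in het lenses (2.21, adjusted p = 1.28e-07). *Pmel*, the protein of melanosome fibrils, was at 1.05, 1.30 and 1.10 CPM in WT and at 8.10, 5.07 and 2.27 CPM in het lenses (2.13, adjusted p = 1.74e-07). These 3 genes shared an order among the het libraries, replicate 1 the highest and replicate 3 the lowest, as in the photoreceptor sums. WT replicate 1 was not above the other WT libraries in any of the 3 genes. Without it their log2 fold changes were 3.00, 1.95 and 2.08, and without het replicate 1 they were 2.57, 1.58 and 1.66.

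*Ttr*, transthyretin, a carrier of thyroxine and retinol made by ciliary and pigment epithelium, was at 2.85, 2.73 and 3.43 CPM in WT and at 25.1, 9.56 and 9.68 CPM in het lenses (2.29, adjusted p = 5.22e-11). *Slc6a13*, a transporter of GABA and taurine, was at 0.844, 0.0649 and 0.803 CPM in WT and at 4.01, 3.27 and 2.61 CPM in het lenses (2.60, adjusted p = 1.82e-06). *Optc*, the vitreous proteoglycan opticin, was at 3.27, 0.26 and 1.68 CPM in WT and at 10.9, 4.68 and 5.42 CPM in het lenses (2.09, adjusted p = 4.20e-08). The values were 2.26, 2.95 and 2.87 without WT replicate 1. Their lowest values were 1.68 for *Ttr* without het replicate 1 and, without WT replicate 2, 1.99 for *Slc6a13* and 1.52 for *Optc*. None of the 3 overlapped between genotypes, and like *Rgr*, *Dct* and *Pmel* they kept the call without any 1 of the 6 libraries. With filterByExpr the adjusted p was 0.207 for *Rgr*, *Dct* and *Slc6a13*, 0.557 for *Ttr*, 0.652 for *Pmel* and 1 for *Optc*. Of the defining pigment cell genes, *Tyr* was at 0 CPM in WT and at 0.534, 0.321 and 0.0687 CPM in het lenses. *Rpe65* was at 0.211, 0 and 0.438 CPM in WT and at 2.14, 0.706 and 1.03 CPM in het lenses. *Tyrp1* was at 1.05, 1.36 and 0.876 CPM in WT and at 3.03, 2.31 and 1.37 CPM in het lenses. In all 3 the het libraries lay above the WT libraries, and none passed (adjusted p = 0.111, 0.142 and 0.825). *Mitf*, the master factor of pigment cells, was at 8.01, 8.18 and 8.47 CPM in WT and 9.97, 8.47 and 6.45 CPM in het lenses. *Oca2*, a melanosome transporter, was at 2.74, 3.83 and 2.56 CPM in WT and at 1.25, 1.99 and 2.27 CPM in het lenses, so the list did not move as a whole.

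**Figure D3:**
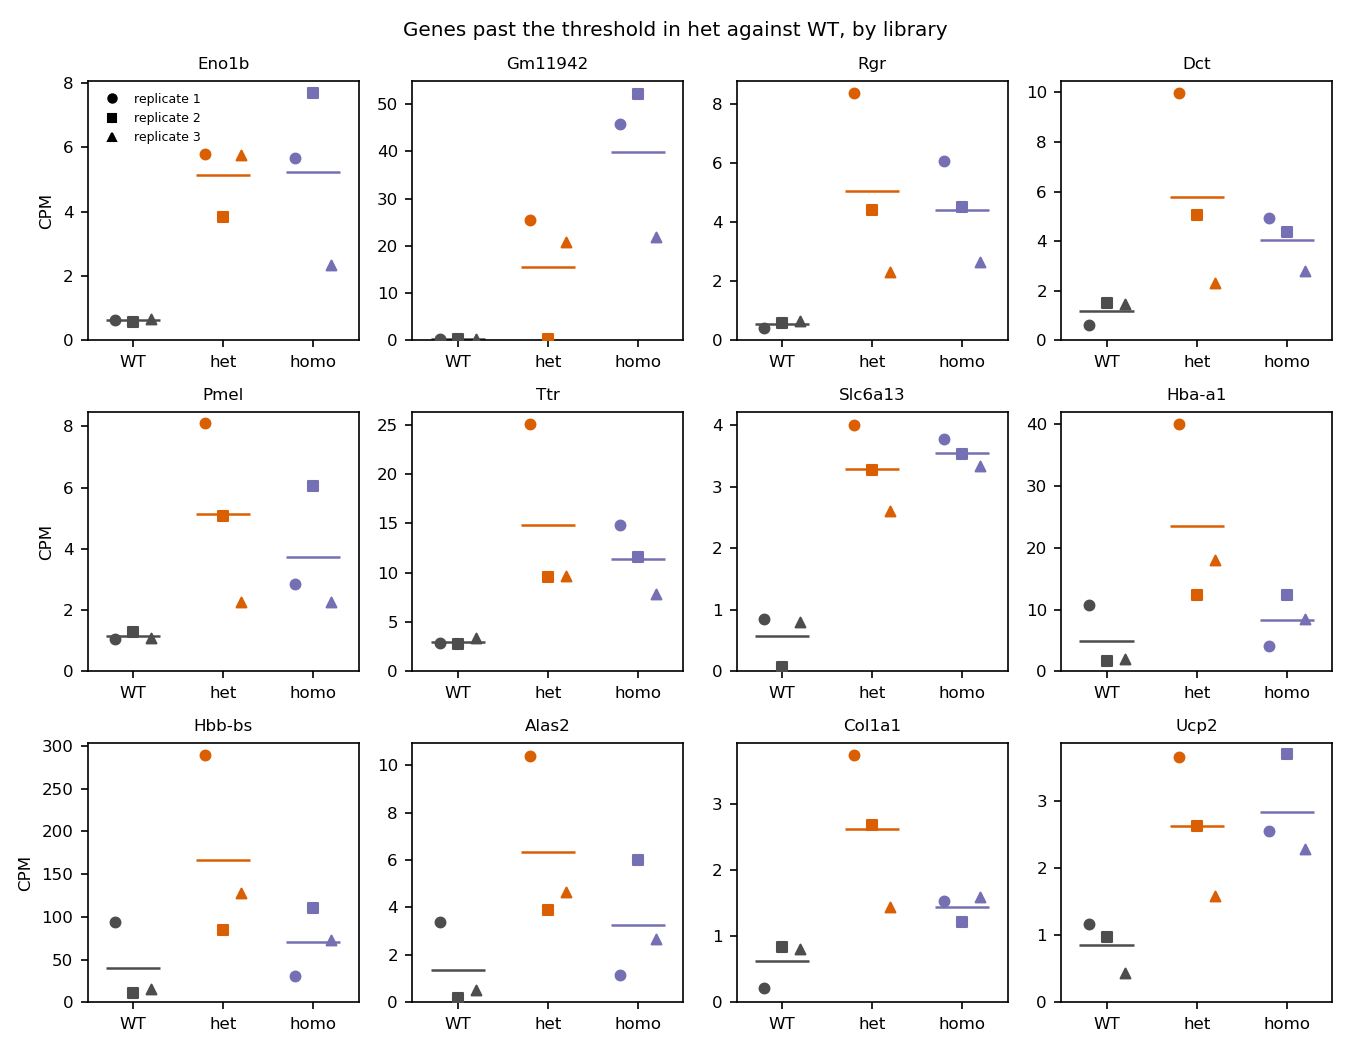
CPM of 12 genes called higher in het lenses, by library, for WT, het and homo lenses of the *Cryab* line, with bars at the group means and circles, squares and triangles for replicates 1, 2 and 3. *Eno1b* is tight within WT and het, het replicate 2 of *Gm11942* sits at the WT level (0.385 CPM), and het replicate 1 is the highest het library for *Rgr*, *Dct*, *Pmel*, *Ttr* and the red cell genes.

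The connective tissue and muscle genes called were low, and het replicate 1 was the highest of the 6 libraries in each. *Col1a1*, the main chain of type I collagen, was at 0.211, 0.844 and 0.803 CPM in WT and at 3.74, 2.69 and 1.44 CPM in het lenses (log2 fold change 1.99, adjusted p = 0.00234, and 0.159 without het replicate 1). It was 1.65 (adjusted p = 0.0452) without WT replicate 1. *Col3a1* was at 0.105, 0.0649 and 0.511 CPM in WT and at 3.56, 0.898 and 0.549 CPM in het lenses (2.77, adjusted p = 0.000398, and 1.62 with adjusted p = 1 without het replicate 1). These were the 2 called of 22 genes of fibrillar collagens and mesenchyme, beside 0.23% higher over all genes. *Acta2*, smooth muscle actin, was at 138, 170 and 168 CPM in WT and 116, 172 and 189 CPM in het lenses.

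*Col9a2*, a chain of the type IX collagen of vitreous and cartilage, was at 0.211, 0 and 0.292 CPM in WT and at 1.51, 0.834 and 0.412 CPM in het lenses (2.47, adjusted p = 0.0201). *Myl1*, a light chain of skeletal muscle myosin, was at 0, 0.0649 and 0.292 CPM in WT and at 7.48, 0.449 and 0.824 CPM in het lenses (4.41, adjusted p = 8.63e-10). Without het replicate 1 its log2 fold change was 2.26 and did not pass (adjusted p = 0.572). Leaving out WT replicate 1 gave 2.51 for *Col3a1*, 2.64 for *Col9a2* and 3.98 for *Myl1*. *Col9a2* kept its call in 3 of the 6 omissions of 1 library, with a lowest log2 fold change of 1.78. *Car3*, carbonic anhydrase III of muscle and fat, was at 0.633, 0 and 0.365 CPM in WT and at 2.40, 1.73 and 0.893 CPM in het lenses (2.44, adjusted p = 0.0288), and *Wif1*, a secreted WNT inhibitor, at 0, 0.195 and 0.073 CPM in WT and 0.98, 0.834 and 0.481 CPM in het lenses (2.83, adjusted p = 0.0122). Both lost the call when 1 of 4 libraries was left out, het replicates 1 and 2 among them. Their log2 fold changes without WT replicate 1 were 3.21 (adjusted p = 0.00386) and 2.42 (adjusted p = 0.0751). Of the 32 named genes that were called higher, 15 kept the call without any 1 of the 6 libraries.

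*Ucp2*, a carrier of the mitochondrial inner membrane, was at 1.16, 0.974 and 0.438 CPM in WT and at 3.65, 2.63 and 1.58 CPM in het lenses (1.62, adjusted p = 0.00557). It did not pass without WT replicate 3 (adjusted p = 0.304) or without het replicate 1 (adjusted p = 0.313), and was at 1.85 without WT replicate 1. *Gimap9*, a GTPase of lymphocytes, had no count in WT and 15 in het lenses, at least 4.66-fold higher (adjusted p = 0.0243). It did not pass without WT replicate 2, WT replicate 3 or het replicate 1 (adjusted p between 0.161 and 0.255). It was the 1 gene called of 19 interferon and GIMAP genes, beside 0.23% higher over all genes. *Mansc1* had 1 count over the WT libraries and 20 over the het libraries, a ratio of 18.6 with a counting interval of 2.98 to 773, and did not pass (adjusted p = 0.147) except without WT replicate 1 (adjusted p = 0.0328). None of 25 macrophage and microglia genes passed with all libraries. *C1qb* and *Csf1r* were called higher without WT replicate 1 (adjusted p = 0.024 and 0.0139), beside 1.05% higher over all genes. *Csf1r*, *C1qa* and *Aif1*, the defining macrophage genes, were at or below 0.584 CPM in all 6 libraries.

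Chaperones, the class to which αB-crystallin belongs, held no rise past the threshold, beside 0.23% higher over all genes and 1.05% without WT replicate 1. At such shares lists of this size mostly hold no call. None of 25 cytosolic chaperone and heat shock genes and none of 22 genes of the endoplasmic reticulum was called higher, with or without WT replicate 1. The median log2 fold changes were 0.07 and 0.02. *Hspb1*, the small heat shock protein Hsp25, was at 151, 260 and 166 CPM in WT and at 190, 223 and 275 CPM in het lenses (log2 fold change 0.25, adjusted p = 1), and *Dnajb1*, an Hsp40, at 406, 372 and 304 CPM and at 273, 346 and 372 CPM. *Hspa8*, the constitutive Hsp70, was at 143, 217 and 209 CPM in WT and at 104, 135 and 167 CPM in het lenses (−0.48, adjusted p = 1). Het lenses lay between WT and homo lenses, at 72.0, 56.4 and 29.7 CPM, with overlap towards WT and none towards homo.

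Some other genes had het levels between the WT and homo levels or level with the homo lenses without passing the test against WT. *Bco2* (chromosome 9, 50533087 to 50555181), a carotenoid-cleaving enzyme whose gene lies on the chromosome of *Cryab*, was at 4.43, 7.40 and 6.13 CPM in WT, at 1.69, 3.27 and 3.50 CPM in het and at 0.639, 0.579 and 0.835 CPM in homo lenses. The 3 genotypes did not overlap, but het against WT missed the threshold (log2 fold change −1.08, adjusted p = 0.269, and 0.0681 without WT replicate 1). *Gcg*, proglucagon, was at 108, 70.6 and 83.7 CPM in WT, at 43.5, 54.7 and 58.0 CPM in het and at 30.0, 24.2 and 33.9 CPM in homo lenses (het against WT −0.75, adjusted p = 0.363). *Nrg4*, a neuregulin, was at 2.11, 2.53 and 2.56 CPM in WT, at 0.712, 1.09 and 0.687 CPM in het and at 0.703, 0.685 and 1.06 CPM in homo lenses, so that het and homo lenses lay together below WT (−1.52, adjusted p = 0.337). *H2afx*, a histone variant of the response to DNA breaks, was at 8.01, 2.40 and 3.51 CPM in WT, at 5.52, 6.03 and 6.87 CPM in het and at 9.84, 11.3 and 9.33 CPM in homo lenses (0.44, adjusted p = 1). Here WT replicate 1 lay above the het libraries, and without it the log2 fold change was 1.06 (adjusted p = 0.106).

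**Figure D4:**
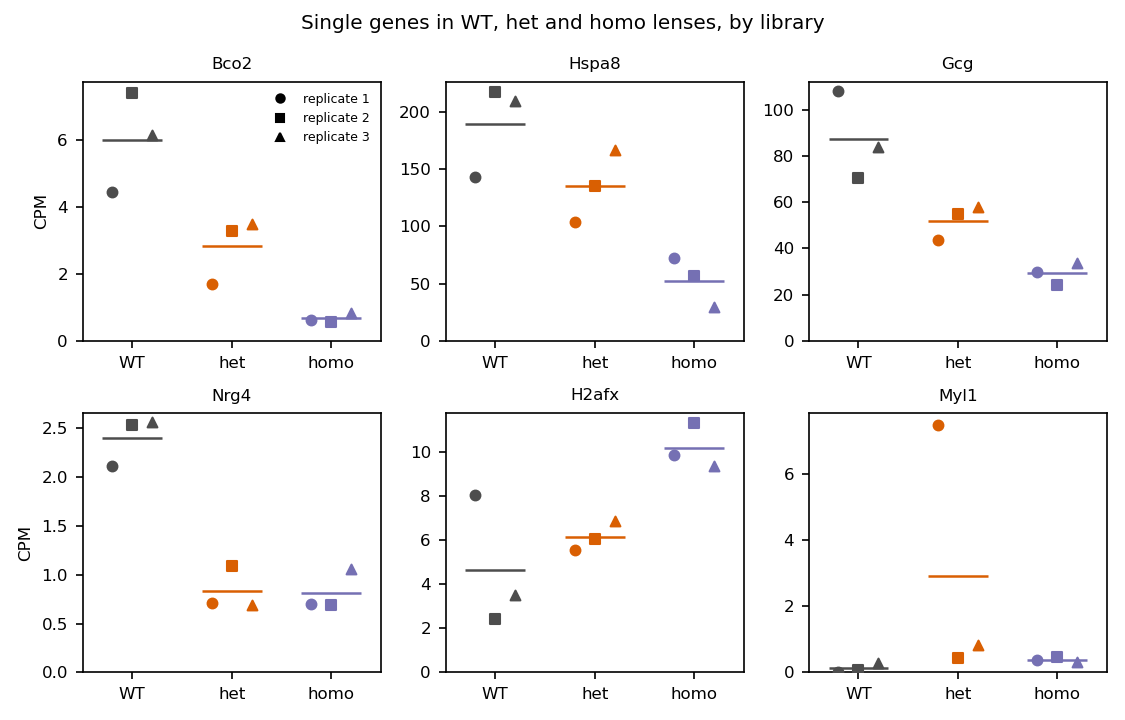
CPM of 6 genes by library in WT, het and homo lenses, with bars at the group means and circles, squares and triangles for replicates 1, 2 and 3. *Bco2* and *Gcg* step down from WT to het to homo without overlap, *Nrg4* is level in het and homo, WT replicate 1 of *H2afx* (8.01 CPM) exceeds all het libraries, and *Myl1* is high in het replicate 1 alone (7.48 CPM).

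*Bco2*, *Nrg4*, *H2afx* and *Hspa8* all lie within 10 Mb of *Cryab* on chromosome 9, the region around the knock-in. Of the 291 genes tested there, 1 was called higher and none lower, beside 0.23% higher and 0.298% lower over all genes. Without WT replicate 1, 7 were called higher and none lower, beside 1.05% and 0.0151% over all genes. The 1 gene was *Crabp1*, a retinoic acid binding protein, with 2 counts in WT and 20 in het lenses, a ratio of 9.32 with a counting interval of 2.26 to 82.3 (adjusted p = 0.0325). It passed without WT replicate 1 (adjusted p = 0.00124) or het replicate 3, and not without any of the other 4 libraries (adjusted p between 0.314 and 0.543). Of the 141 with a mean count of at least 10, all 3 het libraries lay above all WT libraries in 13 and below in 13, beside 4.91% and 5.31% over all such genes, and their median log2 fold change was 0.04.

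Other pathways gave no calls, beside 0.527% over all genes, a share at which lists of this size mostly hold none. None of 26 cell cycle genes, 20 aminoacyl-tRNA synthetases and 22 sterol synthesis enzymes passed in either direction, with medians of 0.07, 0.14 and 0.17. *Ccnd2*, a cyclin of lens epithelial division, was at 74.8, 87.9 and 74.9 CPM in WT and at 77.4, 87.3 and 90.7 CPM in het lenses. The medians of all lists are plotted with and without WT replicate 1.

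**Figure D5:**
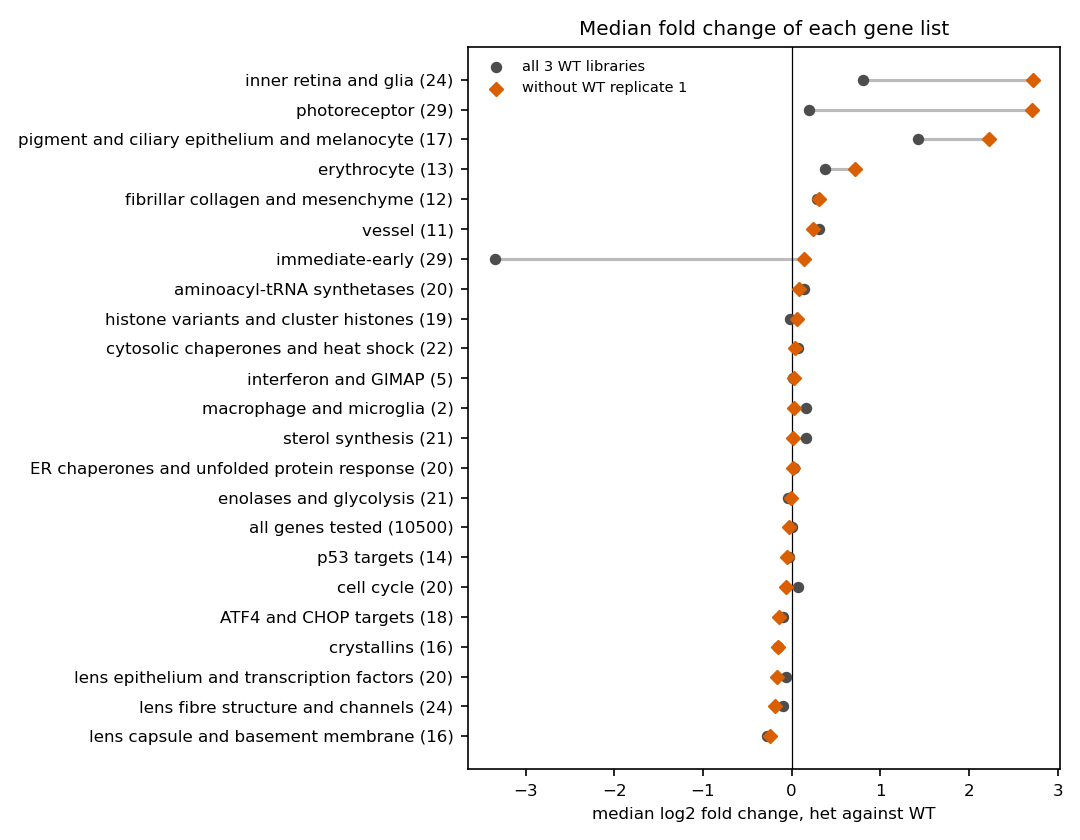
Median log2 fold change of het against WT for each gene list, over genes with a mean count of at least 10 (number in parentheses), with all 3 WT libraries (circles) and without WT replicate 1 (diamonds). The immediate-early, photoreceptor, inner retina and pigment lists move by more than the others when this library is left out, and the 4 lens lists lie between −0.27 and −0.07 with all libraries, or between −0.08 and 0.12 when scaled by library size.

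Whether het and homo lenses differed was tested as a contrast of these groups in the model of all 18 libraries, which also set its variance. In this contrast 15 genes passed (0.0565% of 26547), 8 higher (0.0301%) and 7 lower (0.0264%) in homo lenses, and none with filterByExpr (274 at an unadjusted p under 0.05, DESeq2 0). The lower genes were the 4 adult globins, *Myl1*, *Hspa8* and *Bco2*. With the replicate number as a block none of the 4 globins passed (adjusted p between 0.0616 and 1), while *Hba-a2* did in a blocked fit of the 6 het and homo libraries alone (adjusted p = 0.00567), a fit chosen after seeing the data. *Hspa8* was lower by a log2 fold change of −1.36 (adjusted p = 0.00103) and *Bco2* by −2.07 (adjusted p = 0.00193). For *Hba-a1* the value was −1.49 (adjusted p = 0.000387), with het libraries at 40.0, 12.4 and 18 CPM and homo libraries at 4.09, 12.4 and 8.42 CPM. The higher genes were *Gm11942* (1.37, adjusted p = 0.00185) and 7 others, *Opn1sw*, *Prss56*, *Crym*, *Tagln3*, *Prph2*, *Sag* and *Rtbdn*, of which *Prss56* and *Tagln3* did not pass with the block (adjusted p = 0.1 and 0.112), and *Tagln3* did in the blocked fit of 6 libraries (adjusted p = 0.0489). *Opn1sw*, the short-wave cone opsin, was at 6.5, 3.59 and 1.03 CPM in het and at 25.4, 12.2 and 2.35 CPM in homo lenses (1.87, adjusted p = 6.86e-06), against 8.65 CPM in WT replicate 1. Homo replicate 3 lay within the het range for both *Opn1sw* and *Sag*. The photoreceptor sums moved with these genes, at 1022, 511 and 194 CPM in het and 1921, 967 and 374 CPM in homo lenses, and their part in the calls was not tested.

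Against WT, het and homo lenses share the WT libraries, so their values stand side by side here. *Eno1b* had log2 fold changes of 3.03 in het and 3.07 in homo lenses, *Rgr* 3.13 and 2.96, *Slc6a13* 2.60 and 2.71, and *Ttr* 2.29 and 1.92. *Fos* had −8.18 and −8.19, both set by WT replicate 1. *Col1a1* had 1.99 in het and 1.13 (adjusted p = 0.435) in homo lenses, and *Hbb-bs* 2.07 and 0.84 (adjusted p = 0.0797). With the replicate number as a block the value of *Hbb-bs* in homo lenses was 1.60 (adjusted p = 2.34e-06) and that of *Fos* −4.51 (adjusted p = 2.43e-17), and the other 5 genes kept their side of the threshold.

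Whether the het effect differed between the lines was tested as the *Cryab*-R120G-het effect minus the *Cryaa*-R49C-het effect. Line and age change together and cannot be told apart. Here 88 genes passed (0.331%), 34 with the larger value in the *Cryab* line (0.128%) and 54 with the larger in the *Cryaa* line (0.203%), none with filterByExpr (352 at an unadjusted p under 0.05) and 5 with DESeq2. The smallest filterByExpr adjusted p was 0.0734 among the genes named here, for *Eno1b*, whose effects differed by 3.35 on the log2 scale.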

How the data were processed

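RNA from pooled whole lenses was sequenced in 18 libraries. Per the labels and the study's methods, base calls were made with CASAVA 1.8, and the authors aligned the reads with STAR 2.0.4b to GRCm38 and counted reads per Ensembl gene with featureCounts 1.4.5. The deposited read counts are not normalized. Deposited CPM, length-scaled and moderated log2 tables were not used. The strand setting of the counting is not given in the sources used here. Of 41422 lines, 40800 genes remained after repeated lines of 1 identifier were merged.

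In R 4.3.3 with edgeR 4.0.16, 26547 genes with a count in any library were scaled by TMM and fitted in 1 model of 6 groups with robust dispersions. The 3 contrasts were tested by quasi-likelihood at an FDR of 0.05. The prior degrees of freedom were infinite, so each gene took the common trend. With filterByExpr they were 10.2, and SEs come from that model. The scripts were tested on data simulated from the common trend without a divergent library, so that test cannot give the error rate of the calls. The scaling factors of the *Cryab* libraries ran from 0.496 to 0.793. DESeq2 1.42.0, other scalings and filters and the omission of each library were tried. A floor is 3 counts over a group, and floors and intervals cover counting error only. For a single value, the smallest two-sided p of an exact permutation test is 0.1 at this size. Pools count as replicates, and the replicate pairs differed beyond sampling noise.

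The comparison, the 22 gene lists and the named genes (*Cryab*, *Cryaa*, a list the study chose on these samples, the 10 largest non-overlapping rises and falls with a mean count of at least 10 in a group, and called list members) were chosen with earlier results of these data known. Positions come from GENCODE vM21. Promoters come from RefSeq. Single values of some list members are not reported here.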

Additional observations from a re-analysis of the deposited data

Results flagged for a closer look

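In 32 of the named genes the het effect differed between the *Cryab* line at 14 days and the *Cryaa* line at 2 days (edgeR quasi-likelihood test of the difference, FDR at most 0.05 over 26547 genes). None passed with filterByExpr, where the smallest adjusted p was 0.0734. The values below are the *Cryab*-R120G-het effect minus the *Cryaa*-R49C-het effect on the log2 scale, and the effects of line and age cannot be told apart. They were negative for *Fos* (−10.36), *Fosb* (−14.26, with no count outside WT replicate 1 in the 6 *Cryab* libraries compared), *Egr1* (−7.73), *Atf3* (−8.33), *Maff* (−5.59), *Chac1* (−4.26), *Socs3* (−4.25), *Cep152* (−2.62), *Plk2* (−2.45), mt-Tc (−2.45), *Chka* (−2.07), *Hbegf* (−1.99), *Btg2* (−1.84) and *Hspa5* (−1.50), all of them genes that were highest in *Cryab*-WT replicate 1. Within the *Cryaa* line, *Fos* (2.18), *Fosb* (1.81) and *Egr1* (1.47) were also called higher in het lenses against WT. The other genes of this group did not pass there.

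They were positive for *Gm11942* (6.81), *Foxp2* (6.73, with no count in *Cryab*-WT), *Myl1* (5.88), *Col3a1* (3.78), *Col1a1* (3.44), *Eno1b* (3.35), *Rgr* (3.01), *Ttr* (2.87), *Col9a2* (2.78), *Dct* (2.74), *Pmel* (2.60), *Slc6a13* (2.32), *Optc* (1.91), *Reln* (1.87), *Hbb-bt* (1.64), *Hba-a1* (1.60), *Col18a1* (1.55) and *Hbb-bs* (1.45). The fitted values for *Fosb* and *Foxp2* depend on the prior count, since a group is at 0.

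Homo and het lenses of the *Cryab* line differed in 8 of the named genes (same test). On the log2 scale, homo minus het was 1.37 for *Gm11942*, −2.83 for *Myl1*, −2.07 for *Bco2*, −1.49 for *Hba-a1*, −1.37 for *Hba-a2*, −1.36 for *Hspa8*, −1.23 for *Hbb-bs* and −1.17 for *Hbb-bt*. None of these passed with filterByExpr, and with the replicate number as a block in the model of 18 libraries the 4 globins did not pass.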

How the results depend on the processing

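The counts of called genes depended on the model more than on the scaling. Het against WT gave 140 calls, 144 with RLE size factors and 122 with library size alone (63 higher and 59 lower), 12 with DESeq2, 25 with a likelihood-ratio test and robust dispersions, 30 with the 6 libraries alone, 32 with the 9 *Cryab* libraries, 1 with filterByExpr, and 2 with genes of more than 1 count in all (chosen after seeing the data). Homo against het gave 15 calls, and 0, 2, 3, 0 and 0 with DESeq2, the likelihood-ratio test, the 9 libraries, filterByExpr and genes of more than 1 count. The difference between the lines gave 88 calls, and 5, 15, 0 and 2 with DESeq2, the likelihood-ratio test, filterByExpr and genes of more than 1 count. Without any 1 library the 3 counts ranged from 90 to 281, from 2 to 73 and from 53 to 158. The highest counts for het against WT and for the lines came without WT replicate 1, the lowest without het replicate 1 (19 higher and 71 lower for het against WT). For homo against het, 73 came without het replicate 1, 60 without homo replicate 3, 6 without het replicate 3 and 2 without homo replicate 1. With filterByExpr het against WT ranged from 0 to 3.

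The replicate numbers did not pair WT with het or het with homo libraries by the rule that each of 3 correlations exceed 0.1. Deviations of libraries of the same number from their group means correlated with r = 0.25, 0.01 and 0.09 for WT and het and 0.17, −0.02 and 0.04 for het and homo, although the titles number het and homo libraries consecutively. For WT and homo r was 0.20, 0.12 and 0.10, all over 0.1, and the blocked values stand beside that comparison where they change it. With the replicate number as a block and the 6 het and homo libraries alone (chosen after seeing the data), homo against het gave 26 calls, 22 of them higher, and *Gm11942* lost its call (adjusted p = 1). With the replicate number as a block, 116, 11 and 52 genes passed in the 3 contrasts, and with filterByExpr 3, 0 and 0.

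Of the 68 genes followed, 8 turned direction in 21 of the settings. *Cryaa* turned to 0.085 with library size alone, and *Plk2* to 0.11 and *Hspa5* to 0.058 in the likelihood-ratio test. Without WT replicate 1 alone, the values turned to 1.31 for *Fos* (1.30 with filterByExpr), 0.14 for *Btg2* (0.13), 0.69 for *Plk2* (0.68), 0.062 for *Pecam1* (0.054), 0.75 for *Cebpb* (0.75) and 0.45 for *Hspa5* (0.44). Without any 1 library, the lowest values were −9.00 for *Fos* (−9.04 with filterByExpr), −1.81 for *Btg2* (−1.84), −2.75 for *Plk2* (−2.78), −2.68 for *Pecam1* (−2.72), −4.56 for *Cebpb* (−4.60) and −1.10 for *Hspa5* (−1.13). *Gnat1*, at 0.33 with all libraries, was −0.23 without WT replicate 2 (−0.26 with filterByExpr), −0.07 without WT replicate 3 (−0.11) and −0.46 without het replicate 1 (−0.50), and reached 2.5 without WT replicate 1 (2.49). The causes were not tested. In 733 other settings of single genes direction and call held, in 719 the call was lost and in 15 it was gained. Most called genes have under 10 CPM, where counting error and 1 divergent pool weigh most, and the 3 libraries a group limit every value.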
